A study of Mus musculus with 6 samples.

Results

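The ligands of the epidermal growth factor (EGF) family and their 4 ErbB receptors were followed in the uterine luminal layer and in the blastocysts of pregnant mice. The 6 ligand genes were *Areg*, *Ereg*, *Btc*, *Hbegf*, *Tgfa* and *Egf*, and the 4 receptor genes were *Egfr*, *Erbb2*, *Erbb3* and *Erbb4*. These 10 genes were taken by symbol from the 23420 genes of the deposited tables because the family is known for signals between uterus and blastocyst. All 10 were found in the tables of both tissues.

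Each of the 6 groups was 1 library, so no difference between groups had a replicate check and no p-value is given. Tissue was taken on day 4 of pregnancy, at 8 pm. The control females were *Lif*-floxed/floxed without Cre and received PBS. The *Lif* eKO females were *Lif*-floxed/floxed *Ltf*-Cre/+ and received PBS, the Cre being driven by the lactoferrin promoter, which is active in the uterine epithelium. The third group had the eKO genotype and was given recombinant Lif (rLif) intraperitoneally, 20 µg per head each time, at 10 am and again at 6 pm of day 4, and was dissected 2 h after the last injection. All females thus carried the floxed allele on both chromosomes, and their blastocysts were labelled *Lif*-floxed/+ in all 3 groups. The luminal layer was cut out by laser microdissection from a uterine horn that had not been flushed, and the RNA of several animals was pooled. The blastocysts were flushed from the other horn and pooled.

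EGF family ligands are made as membrane-anchored precursors, and proteases of the ADAM family release the soluble growth factor. Amphiregulin (*Areg*), transforming growth factor alpha (*Tgfa*) and EGF bind EGFR (ErbB1), whereas HB-EGF (*Hbegf*), betacellulin (*Btc*) and epiregulin (*Ereg*) bind both EGFR and ErbB4. ErbB2 has no known ligand of its own and ErbB3 has very little kinase activity, so these receptors act mainly in pairs with another ErbB. In the mouse uterus *Areg* is known as a progesterone-responsive gene of the luminal epithelium around the time of attachment, and *Hbegf* is known to appear in the luminal epithelium at the site of the blastocyst. The comparisons asked how the transcripts of this family differed when the uterine epithelium lacked *Lif*, and how they differed again after Lif was supplied.

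Stretches upstream of 4 ligand genes are shown because *Areg* and *Btc* differed between luminal libraries and lie in 1 cluster with *Epgn* on chromosome 5, and *Tgfa* is a ligand gene outside it. Each stretch holds the 150 bases that end just before the RefSeq start site (GRCm38.p6), written 5′ to 3′ on the strand of the gene. Capitals mark a cyclic AMP response element (CRE, TGACGTCA) or a TATA box (TATAAA).
Areg (chr5:91139449-91139598, plus strand): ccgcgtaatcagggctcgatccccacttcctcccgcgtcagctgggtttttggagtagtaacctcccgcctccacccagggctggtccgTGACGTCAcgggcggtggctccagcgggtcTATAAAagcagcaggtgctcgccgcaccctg
Epgn (chr5:91027367-91027516, plus strand): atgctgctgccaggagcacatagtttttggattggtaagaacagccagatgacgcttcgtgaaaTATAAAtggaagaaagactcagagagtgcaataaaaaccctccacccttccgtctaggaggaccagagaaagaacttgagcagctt
Btc (chr5:91402995-91403144, minus strand): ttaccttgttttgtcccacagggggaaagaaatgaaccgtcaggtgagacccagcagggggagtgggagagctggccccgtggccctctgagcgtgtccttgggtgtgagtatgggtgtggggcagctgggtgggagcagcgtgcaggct
Tgfa (chr6:86195072-86195221, plus strand): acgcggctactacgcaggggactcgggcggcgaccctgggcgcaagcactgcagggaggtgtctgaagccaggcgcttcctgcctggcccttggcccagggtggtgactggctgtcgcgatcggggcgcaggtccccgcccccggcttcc
A promoter window of 300 bases, from 250 before to 50 after the start site, was searched for 7 of the 10 genes. *Ereg*, *Hbegf* and *Erbb3* were not searched, so nothing is said of their windows. Both strands were searched for 4 motifs, the CRE, the AP-1 site TGANTCA, the STAT site TTCNNNGAA and the TATA box. The *Areg* window held the CRE at 61 to 54 bases before the start and the TATA box at 31 to 26 bases before it. Of 32851 mouse promoter windows of the same length, 1.79% held the CRE, 7.81% the AP-1 site, 8.3% the STAT site and 13.6% the TATA box. The *Epgn* window held a TATA box at 86 to 81 bases before the start. None of the 4 motifs was found in the windows of *Btc*, *Tgfa*, *Egf*, *Egfr*, *Erbb2* and *Erbb4*, and no match overlapped another. These matches are letters in a window and were not tested as binding sites.

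Total counts ranged from 18996158 to 28460465 per library. A gene entered the comparisons of a tissue if its 3 libraries together held 10 counts or more, which left 15694 genes in the luminal layer and 14873 in blastocysts. *Lif* itself was counted 0 times in the control-labelled luminal library, 28 times in the one with the eKO label and 0 times in the one with the label of eKO females given rLif. The study places *Lif* in the uterine glands before attachment and in the stroma around attached embryos. A count of 0 in the control luminal layer thus does not go against its label. The source of the 28 counts was not tested, and the counts do not show the deletion. These 3 libraries are therefore called control-labelled, eKO-labelled and rLif-labelled, and comparisons such as eKO against control are named by these labels. The counts cover the whole gene, including exons outside the floxed part, and therefore check the deletion only in part. The list of luminal epithelium markers was found in all 3 luminal libraries, with 10 of 10 above 0 and a summed level of 5487, 8186 and 5834 CPM (counts scaled to a common library size) in the control-labelled, eKO-labelled and rLif-labelled libraries. The list does not set this tissue apart from blastocysts, whose trophectoderm shares its keratins. There 9 of 10 were above 0, *Wnt7a* being at 0, and the sums were 7035, 7346 and 6933 CPM. The library sizes were scaled by TMM, a method that sets them so that most genes do not differ. In the 3 blastocyst libraries the trophectoderm list summed to 2837, 3076 and 3159 CPM and the inner cell mass list to 758, 803 and 1004 CPM.

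In the luminal layer, most of the ligand transcripts were lowest in the eKO-labelled library and highest in the rLif-labelled library. *Areg* (chromosome 5, 91139615 to 91148432, plus strand), whose upstream stretch with the CRE and TATA box is shown above, had 1067 counts in the control-labelled library, 236 in the eKO-labelled library and 7232 in the rLif-labelled library. These counts were 42.3, 8.22 and 278 CPM, so the 3 libraries lay far apart and rLif gave the highest value of any ligand. Between 2 libraries, a difference is given as a log2 ratio of scaled counts with its exact 95% Clopper-Pearson interval, and a gene is said to pass the 2-fold limit when the whole interval lies beyond a log2 ratio of 1. Both this interval and the Poisson intervals below reflect the error of counting reads and nothing else. PCR copies are not independent molecules, so the intervals may be too narrow even for the counting of molecules. They say nothing of the spread between animals. *Areg* was 5.14-fold lower in the eKO-labelled library than in control (log2 ratio -2.36, interval -2.57 to -2.16). With rLif it was 33.8-fold higher than in the eKO-labelled library (log2 ratio 5.08, interval 4.89 to 5.27) and 6.57-fold higher than in control (log2 ratio 2.72, interval 2.62 to 2.81). In a pooled bulk library, fewer cells of a type and less RNA per cell cannot be told apart.

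*Ereg* (chromosome 5, 91074617 to 91093649, plus strand), which encodes epiregulin, had the same order at a much lower level. It had 26 counts in the control-labelled library, 0 in the eKO-labelled library and 112 in the rLif-labelled library. Against a floor of 3 counts for the library at 0, *Ereg* was at least 9.86-fold lower in the eKO-labelled library than in control and at least 41.2-fold higher with rLif than without it. The library with rLif also exceeded control, by a log2 ratio of 2.06 (interval 1.44 to 2.74). *Btc* (chromosome 5, 91357261 to 91402994, minus strand), which encodes betacellulin, had 138, 65 and 180 counts in the same order of libraries. Its lower value in the eKO-labelled library did not pass the 2-fold limit (log2 ratio -1.27, interval -1.72 to -0.84), while its higher value with rLif did (log2 ratio 1.61, interval 1.19 to 2.04). The rLif and control libraries were close for *Btc*, with a log2 ratio of 0.34 (interval 0.01 to 0.67).

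*Hbegf* (chromosome 18, 36504927 to 36515805, minus strand), the gene of HB-EGF, had 1134 counts in the control-labelled luminal library, 457 in the eKO-labelled library and 1789 in the rLif-labelled library. In CPM these were 44.9, 15.9 and 68.7, again lowest in the eKO-labelled library. *Hbegf* was 2.82-fold lower in that library than in control (log2 ratio -1.50, interval -1.66 to -1.34) and 4.32-fold higher with rLif than without (log2 ratio 2.11, interval 1.96 to 2.26). The rLif library exceeded control by a log2 ratio of 0.61 (interval 0.51 to 0.72), short of the 2-fold limit.

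*Tgfa* (chromosome 6, 86195251 to 86275449, plus strand) had 435, 157 and 215 counts in the control-labelled, eKO-labelled and rLif-labelled luminal libraries. Unlike *Areg* and *Hbegf*, *Tgfa* stayed nearer to the eKO-labelled library than to control after rLif. It was 3.15-fold lower in the eKO-labelled library than in control (log2 ratio -1.66, interval -1.93 to -1.39), and with rLif the log2 ratio was 0.60 (interval 0.29 to 0.90) against the eKO-labelled library and -1.06 (interval -1.30 to -0.82) against control. *Egf* (chromosome 3, 129677575 to 129755322, minus strand), the gene that names the family, was near the limit of detection with 4, 22 and 0 counts. Against the floor of 3 counts, *Egf* was at least 6.65-fold lower with rLif than in the eKO-labelled library. The log2 ratio of the eKO-labelled library to control was 2.27 (interval 0.72 to 4.27) and did not pass the limit. Exons of *Egf* share 506 bases with those of *6330410L21Rik*, so its counts are uncertain.

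**Figure D1:**
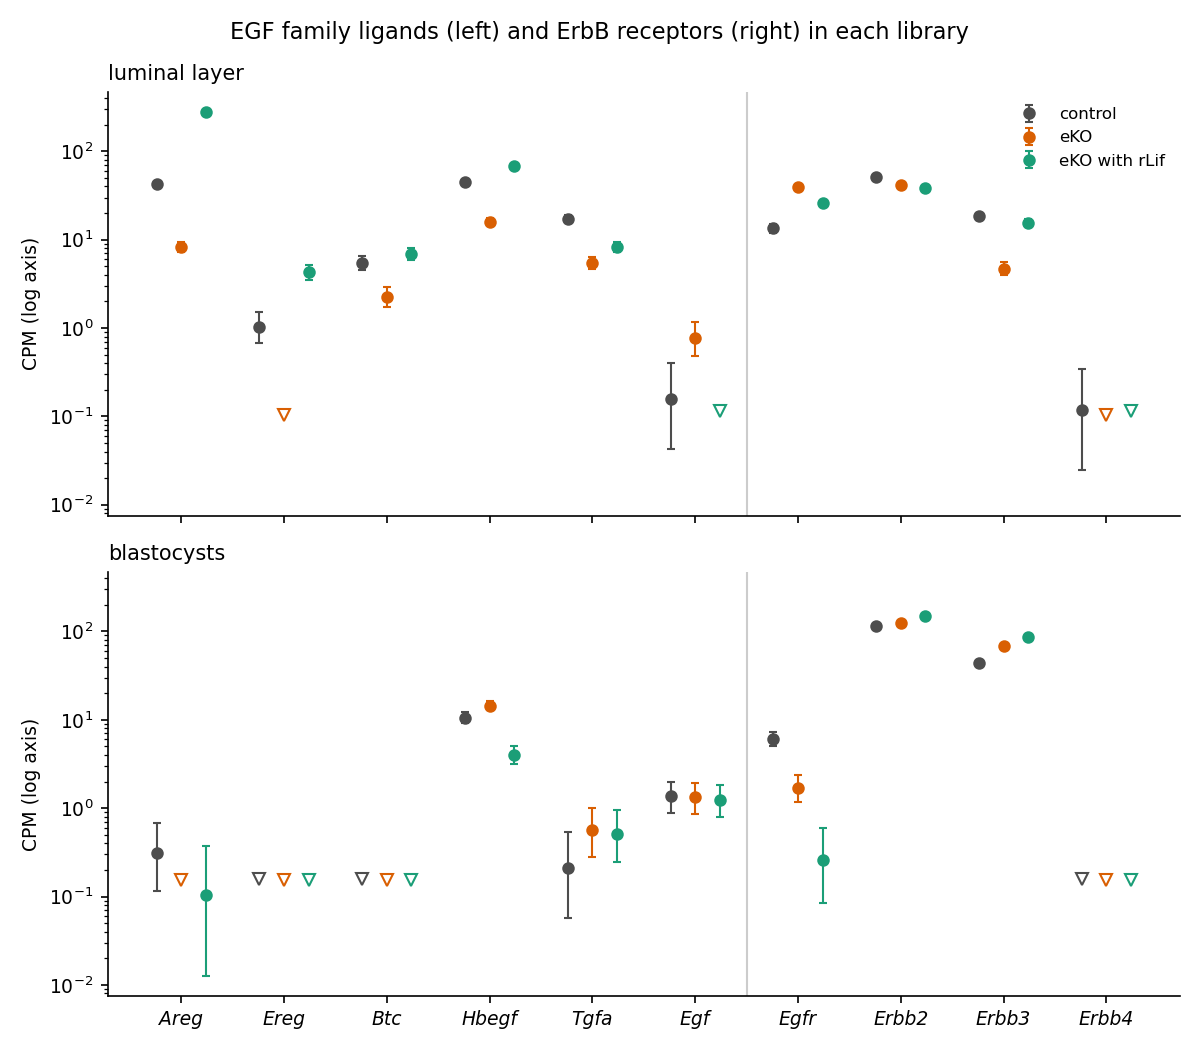
CPM (log axis) of each gene in the 3 luminal libraries (top) and the 3 blastocyst libraries (bottom), with exact 95% Poisson intervals, 1 library per point, and open triangles at the floor of 3 counts where a library had 0. In the luminal layer *Areg*, *Ereg* and *Hbegf* were lowest in the eKO-labelled library and highest with rLif. *Egfr* was highest in the eKO-labelled library there, whereas in blastocysts it was 6.14, 1.69 and 0.257 CPM in control, eKO and eKO with rLif.

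The receptors did not share 1 order. *Egfr* (chromosome 11, 16752203 to 16913907, plus strand), the receptor of all 6 ligands, had 338 counts in the control-labelled luminal library, 1127 in the eKO-labelled library and 676 in the rLif-labelled library. It was 2.93-fold higher in the eKO-labelled library than in control (log2 ratio 1.55, interval 1.37 to 1.73), an order opposite to that of *Areg* and *Hbegf*. With rLif the log2 ratio was -0.60 (interval -0.74 to -0.46) against the eKO-labelled library and 0.96 (interval 0.77 to 1.15) against control, so neither passed the 2-fold limit. Stromal cells also make *Egfr*, and the stroma list moved with it. All 11 stromal markers were above 0 in the 3 luminal libraries and summed to 983, 1397 and 1024 CPM, highest in the eKO-labelled library. The luminal epithelium list was also highest there, and the part of either in the *Egfr* values was not tested.

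*Erbb3* (chromosome 10, 128569368 to 128589501, minus strand), whose protein is the kinase-poor partner receptor, was lowest in the eKO-labelled library and highest in control, as *Tgfa* was. It had 464, 135 and 401 counts in the control-labelled, eKO-labelled and rLif-labelled luminal libraries. That was 3.91-fold lower in the eKO-labelled library than in control (log2 ratio -1.97, interval -2.25 to -1.69) and 3.28-fold higher with rLif than without (log2 ratio 1.71, interval 1.43 to 2.00). The log2 ratio of the rLif library to control was -0.25 (interval -0.45 to -0.06). *Erbb2* (chromosome 11, 98412484 to 98437716, plus strand), the receptor without a known ligand, differed little, with 1302, 1180 and 1013 counts. Its log2 ratios were -0.33 (interval -0.44 to -0.21), -0.08 (interval -0.20 to 0.04) and -0.41 (interval -0.53 to -0.29) for eKO against control, rLif against eKO and rLif against control. Exons of *Erbb2* share 9 bases with those of *Mien1*. *Erbb4* (chromosome 1, 68039966 to 69108059, minus strand), the second receptor for HB-EGF, betacellulin and epiregulin, had 3, 0 and 0 counts and was too low to compare.

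Of the 10 genes, 9 reached the count minimum in the luminal layer. In the eKO-labelled library against control, 1 of these 9 was higher past the 2-fold limit (*Egfr*) and 5 were lower (*Areg*, *Ereg*, *Hbegf*, *Tgfa* and *Erbb3*). Of all genes compared there, 8.08% were higher and 9.15% were lower. The median log2 ratio was -1.50 over the 9 genes and 0.0063 over all genes. With rLif against the eKO-labelled library, 5 were higher (*Areg*, *Ereg*, *Btc*, *Hbegf* and *Erbb3*) and 1 was lower (*Egf*), where 7.88% of all genes were higher and 7.77% lower, and the median was 1.61. The glandular epithelium list was also highest with rLif, at 18.1, 18.9 and 37.6 CPM over 7 markers in the control-labelled, eKO-labelled and rLif-labelled libraries, with 1 marker at 0 in each of the first pair and 0 at 0 with rLif. The endothelium list, with all 7 markers above 0, was at 50.1, 72.0 and 94.9 CPM. The primitive endoderm list also rose, at 1179, 1790 and 2619 CPM. Lowest in the eKO-labelled library were the trophectoderm list, at 15.6, 5.64 and 13.2 CPM, and the immune list, at 1038, 950 and 1029 CPM. Smooth muscle, at 70.4, 50.5 and 31.4 CPM, and inner cell mass, at 34.1, 17.7 and 10.2 CPM, were lowest with rLif. The part of any of these lists in the ligand values was not tested. With rLif against control, 2 were higher (*Areg* and *Ereg*) and 0 were lower, where 4.12% of all genes were higher and 5.04% lower, and the median was 0.34. An exact test in edgeR at an assumed dispersion of 0.1, which adds spread beyond counting, called only *Areg* and *Ereg* of the family in the first comparison, where it called 7.96% of all genes. It called 4 (*Areg*, *Ereg*, *Hbegf* and *Egf*) in the second, where it called 7.07% of all genes, and *Areg* alone in the last, where it called 2.18%. *Egfr*, *Tgfa*, *Btc* and *Erbb3* were thus not called by this test in the luminal layer. These comparisons share their 3 libraries, so a high or low value in 1 library enters 2 of them. The single eKO-labelled library is part of the first and the second.

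**Figure D2:**
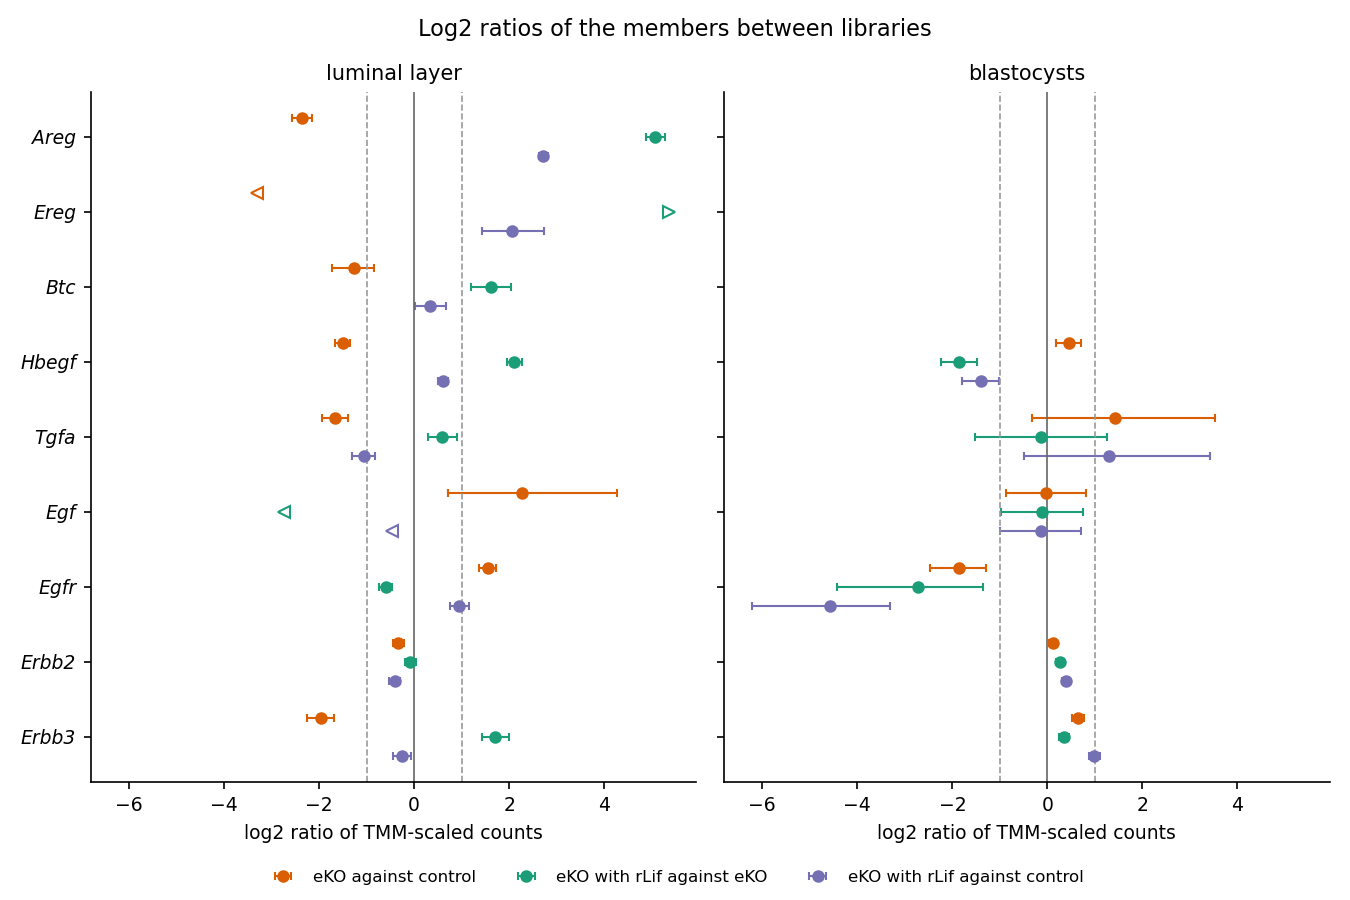
Log2 ratios of scaled counts in the luminal layer (left) and in blastocysts (right) for 3 comparisons of single libraries, with exact 95% Clopper-Pearson intervals. Dashed lines mark the 2-fold limits, and open triangles are bounds from a floor of 3 counts. *Erbb4* and genes under the count minimum are not drawn, and the luminal and blastocyst values of *Egfr* lie on opposite sides of 0 for eKO against control (1.55 and -1.86).

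In blastocysts the receptors were the abundant part of the family and most ligands were at or near 0. *Erbb2* had 2171 counts in control blastocysts, 2410 in those of eKO females and 2891 in those of eKO females with rLif. Its log2 ratios were 0.11 (interval 0.03 to 0.20) when eKO was set against control and 0.39 (interval 0.30 to 0.47) for rLif against control, all under the 2-fold limit. *Erbb3* had 828, 1331 and 1679 counts. It was 1.57-fold higher in eKO than in control (log2 ratio 0.65, interval 0.52 to 0.78) and 1.99-fold higher with rLif than in control (log2 ratio 0.99, interval 0.87 to 1.11), which also did not pass the limit. *Erbb4* had 0 counts in all 3 blastocyst libraries, with exact 95% Poisson upper limits of 0.193, 0.189 and 0.190 CPM in control, eKO and eKO with rLif.

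*Egfr* was the receptor that differed most between blastocyst libraries. It had 117 counts in control blastocysts, 33 in those of eKO females and 5 in those of eKO females with rLif, so it was highest in control and near the floor of 3 counts with rLif. It was 3.64-fold lower in eKO than in control (log2 ratio -1.86, interval -2.47 to -1.29). With rLif it was 6.56-fold lower than in eKO (log2 ratio -2.71, interval -4.43 to -1.35) and 23.9-fold lower than in control (log2 ratio -4.58, interval -6.23 to -3.31). Markers of uterine cells were examined beside this result. *Pdgfra*, which blastocysts make in the primitive endoderm, was left out after its values were seen, and the other 10 stromal markers summed to 42.2, 19.1 and 16.7 CPM, also highest in control, with *Hand2* at 0 in the eKO library. With *Pdgfra* the sums were 166, 165 and 156 CPM. The glandular list was 6.82, 3.53 and 1.44 CPM, with 5 of its 7 markers at 0 in both the eKO and the rLif library and 2 at 0 in control. The other uterine lists did not have the *Egfr* order, with luminal epithelium at the sums given above and smooth muscle at 4.14, 4.55 and 3.04 CPM. The endothelium list went the opposite way, at 87.0, 97.4 and 141 CPM with 2 of its 7 markers at 0 in each library. The part of these transcripts in the *Egfr* values was not tested.

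*Hbegf* was the main ligand transcript of blastocysts, with 202 counts in blastocysts of control females, 283 in those of eKO females and 78 after rLif. The control and eKO libraries were close (log2 ratio 0.45, interval 0.18 to 0.72) and the rLif library was the lowest. With rLif *Hbegf* was 3.61-fold lower than in eKO (log2 ratio -1.85, interval -2.23 to -1.49) and 2.64-fold lower than in control (log2 ratio -1.40, interval -1.80 to -1.02), the latter with its interval just beyond the limit. The immune list moved in the same order, at 76.7, 136 and 29.2 CPM over 8 markers, none of them at 0, in control, eKO and eKO with rLif, and its part in the *Hbegf* values was not tested. In the luminal layer, the same rLif treatment went with a higher *Hbegf* count, not a lower one.

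The remaining ligands were scarce in blastocysts. *Egf* had 26, 26 and 24 counts, with log2 ratios of -0.04 (interval -0.88 to 0.81) for eKO against control and -0.14 (interval -1.01 to 0.71) for rLif against control. *Tgfa* had 4, 11 and 10 counts, and all 3 of its intervals included 0, the widest, for rLif against control, reaching from -0.50 to 3.42. *Areg*, at up to 7232 counts in the luminal layer, had 6, 0 and 2 counts and fell under the count minimum. *Ereg* and *Btc* had 0 counts in all 3 libraries, so at this depth neither was detectable, with the same upper levels as *Erbb4*.

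Of the 10 genes, 6 reached the count minimum in blastocysts. In eKO against control, 0 were higher and 1 was lower (*Egfr*), where 1.29% of all genes were higher and 1.86% lower. With rLif against eKO, 0 were higher and 2 were lower (*Hbegf* and *Egfr*), where 0.914% of all genes were higher and 2.83% lower. With rLif against control the same pair was lower and 0 were higher, where 0.948% of all genes were higher and 3.99% lower. The median log2 ratios of the 6 genes were 0.28, -0.12 and 0.12 in these comparisons, beside medians of -0.003, -0.0095 and -0.0131 over all genes. The edgeR exact test at an assumed dispersion of 0.1 called 0 of them in the first pair of comparisons, where it called 0.437% and 0.390% of all genes, and only *Egfr* for rLif against control, where it called 0.834%.

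Levels of different genes were compared per exon length, as TPM, the count per base of exon scaled to the same sum in every library, from the deposited exon lengths. In the control-labelled luminal library, *Areg* was the highest of the 10 genes at 61.7 TPM (Poisson interval 58.1 to 65.5), followed by *Hbegf* at 33.1 TPM, *Erbb2* at 18.1 TPM, *Erbb3* at 8.00 TPM and *Tgfa* at 7.13 TPM. *Erbb3* and *Tgfa* did not differ beyond their intervals, nor did *Egfr* at 3.64 TPM and *Btc* at 3.33 TPM. *Ereg* was at 0.436 TPM, above *Egf* at 0.0583 TPM and *Erbb4* at 0.0489 TPM, which overlapped.

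In the eKO-labelled library this order collapsed at the top. *Erbb2* at 12.8 TPM, *Areg* at 10.6 TPM, *Hbegf* at 10.4 TPM and *Egfr* at 9.46 TPM each overlapped the next in their intervals. Below them, *Tgfa* at 2.01 TPM, *Erbb3* at 1.81 TPM and *Btc* at 1.22 TPM also overlapped their neighbours. With rLif *Areg* stood alone at 332 TPM (interval 325 to 340), far above *Hbegf* at 41.5 TPM and *Erbb2* at 11.2 TPM. *Egfr* at 5.78 TPM and *Erbb3* at 5.49 TPM overlapped, as did *Btc* at 3.45 TPM and *Tgfa* at 2.80 TPM, and *Ereg* was at 1.49 TPM.

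Summed by role, the 6 ligands came to 105.8 TPM in the control-labelled luminal library, 24.5 TPM in the eKO-labelled library and 381.5 TPM in the rLif-labelled library. *Areg* made up 58.3%, 43.4% and 87.1% of this sum and *Hbegf* 31.3%, 42.4% and 10.9%. The 4 receptors summed to 29.8, 24.02 and 22.4 TPM, a much narrower range, while the share of *Egfr* was 12.2%, 39.4% and 25.8%.

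In blastocysts the receptors together exceeded the ligands in each library. The receptor sums were 77.7, 95.2 and 114.8 TPM and the ligand sums 11.4, 14.8 and 4.83 TPM in control, eKO and eKO with rLif. *Erbb2* was the highest of the 10 genes in each blastocyst library, at 51.3, 56.1 and 66.6 TPM. *Erbb3* came next at 24.3, 38.5 and 48.1 TPM and *Hbegf* after it at 10.0, 13.9 and 3.78 TPM, each clear of its neighbours. *Egfr* followed in control blastocysts at 2.15 TPM, overlapped *Egf* in eKO at 0.596 TPM, and was at 0.0895 TPM with rLif. The tissues were counted in separate tables, so these levels are set side by side and were not compared further.

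**Figure D3:**
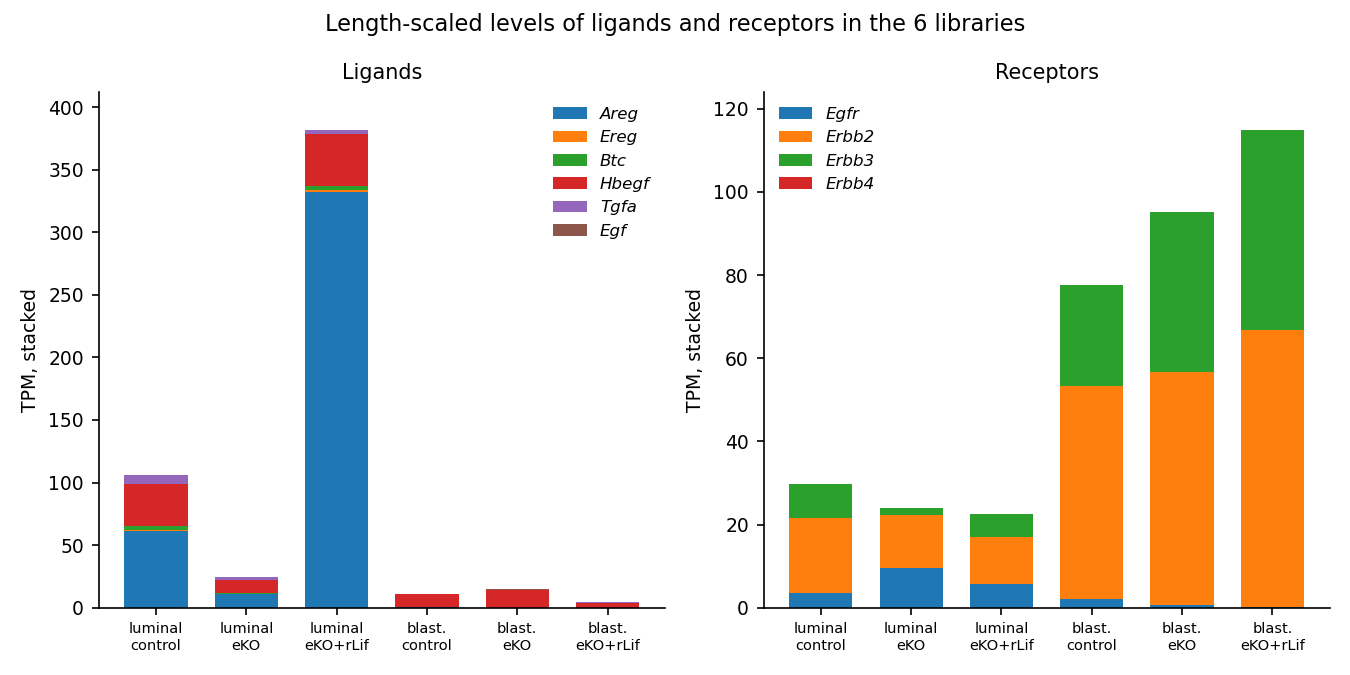
TPM of the 6 ligands (left) and 4 receptors (right), stacked by gene for the 3 luminal and 3 blastocyst (blast.) libraries, 1 library per bar. Ligand sums in the luminal layer were 105.8, 24.5 and 381.5 TPM and were mostly *Areg* and *Hbegf*, whereas blastocysts held mainly *Erbb2* and *Erbb3*.

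*Epgn*, *Ereg*, *Areg* and *Btc* lie within 375.5 kb of chromosome 5, and their neighbours were examined for the same order of libraries. Within 500 kb of the *Areg* start there were 14 genes, 3 of them members of the family studied here. *Epgn* (chromosome 5, 91027517 to 91035212), the gene of epigen, had 0, 0 and 6 luminal counts and was too low to compare. Of the 11 others, including *Epgn* and several CXC chemokine genes, 8 reached the count minimum in the luminal layer. In the eKO-labelled library against control, 2 of these 8 were lower past the 2-fold limit and 0 higher, and with rLif against the eKO-labelled library 4 were higher and 0 lower, beside the shares of 9.15% lower and 7.88% higher over all genes. The chemokine genes *Cxcl5*, with 239, 10 and 321 luminal counts, and *Cxcl3*, with 11, 0 and 40, were the ones lower in the eKO-labelled library. *Cxcl1*, with 45, 19 and 108 counts, and *Parm1*, with 168, 194 and 779 counts, were the other two that were higher with rLif. *Mthfd2l*, which lies between the chemokine genes and *Epgn*, had 179, 223 and 247 counts, and its intervals stayed within 2-fold. *Cxcl2*, with 1, 0 and 3 counts, had the order of *Areg* but was under the count minimum. The remaining chemokine genes, which reached it, had other orders. *Cxcl15* (Il8 in the tables) had 16, 44 and 48 counts, *Ppbp* had 4, 11 and 7, and *Pf4* had 25, 9 and 7. These neighbours were named after their values were seen.

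**Figure D4:**
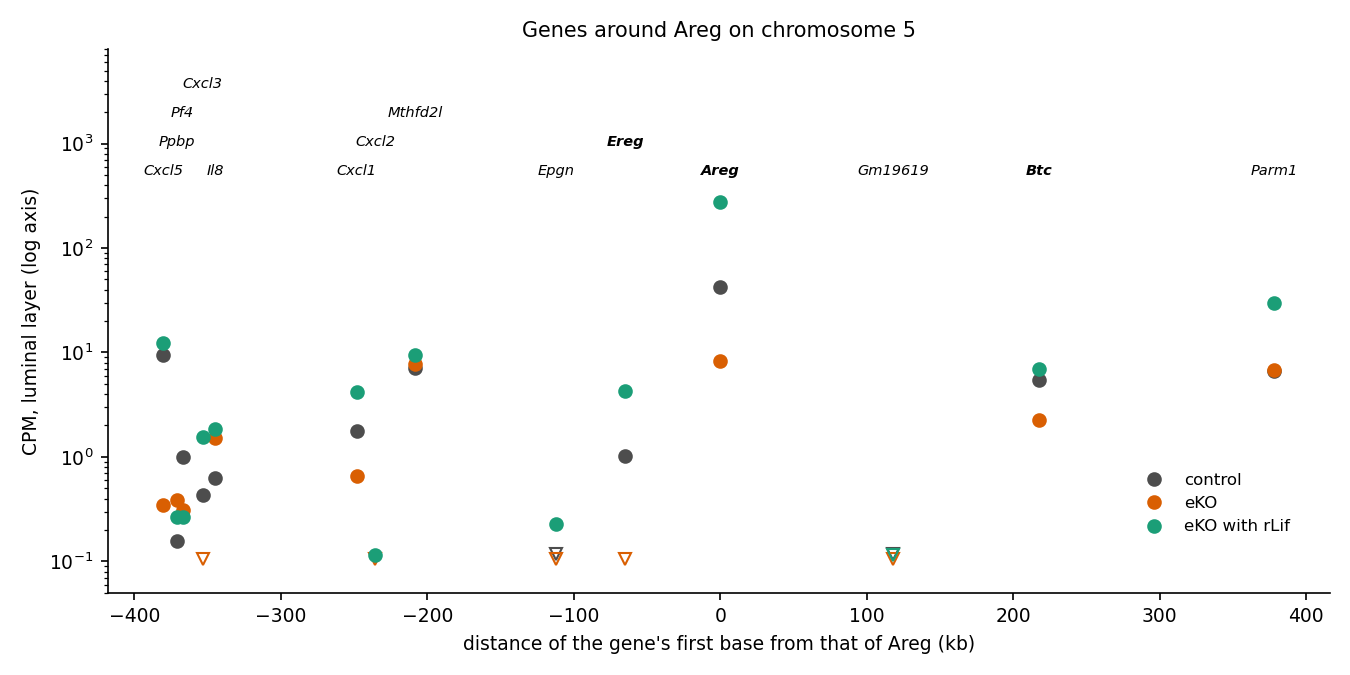
CPM (log axis) in the 3 luminal libraries of the genes around *Areg*, by distance of each gene's first base from that of *Areg* in kb, with *Ereg*, *Areg* and *Btc* in bold. Open triangles stand at the floor of 3 counts where a library had 0, and Il8 is the symbol the tables use for *Cxcl15*. *Areg*, *Ereg*, *Btc*, *Cxcl5*, *Cxcl3* and *Cxcl1* were lowest in the eKO-labelled library, and *Mthfd2l* was not.

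Genes that act with the family were taken from 6 lists with 94 genes, of which 92 reached the count minimum in the luminal layer. In the eKO-labelled library against control, 9 of the 92 were higher and 12 lower past the 2-fold limit. With rLif against the eKO-labelled library, 15 were higher and 3 lower, and with rLif against control 9 were higher and 5 lower. Over all genes 8.08%, 7.88% and 4.12% were higher and 9.15%, 7.77% and 5.04% lower in these 3 comparisons. The 9 and 12 of 92 in the first are not far above the background.

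The list of ligand shedding and processing held the ADAM proteases, their inactive rhomboid regulators (iRhoms), furin and the inhibitor *Timp3*. Of its 12 genes, 2 were higher and 3 lower in the eKO-labelled library than in control, with a list median of -0.24. Over all genes 8.08% were higher and 9.15% lower in this comparison. *Rhbdf2*, which encodes the iRhom that carries ADAM17 to the cell surface, had 1244, 364 and 1164 luminal counts (log2 ratio -1.96 for eKO against control and 1.82 for rLif against eKO). Its relative *Rhbdf1* had 899, 304 and 758 counts, with log2 ratios of -1.75 and 1.46. *Timp3*, an inhibitor of ADAM17, had the opposite order, with 1411, 5749 and 1148 counts and log2 ratios of 1.84 and -2.18. All of these passed the limit in both comparisons.

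The partners of HB-EGF and the heparan sulfate proteoglycans, which hold HB-EGF at the cell surface, gave 2 higher and 1 lower of 12 in the eKO-labelled library against control, with a median of 0.51. Of all genes, 8.08% were higher and 9.15% lower there. *Sdc1*, the proteoglycan syndecan-1, had 2394, 1171 and 3696 counts (log2 ratio -1.22 for eKO against control and 1.80 for rLif against eKO). *Cd44*, a hyaluronan receptor with heparan sulfate forms, had 648, 1956 and 689 counts (log2 ratio 1.41 and -1.36). *Cd9*, a tetraspanin that binds the HB-EGF precursor, had 15090, 43348 and 38450 counts and was higher than control in both other libraries, by log2 ratios of 1.34 and 1.30. Among the other ligands, the neuregulins *Nrg2* and *Nrg4* were higher in the eKO-labelled library than in control. *Nrg2* had 12, 58 and 39 counts (log2 ratio 2.09) and *Nrg4* had 188, 752 and 381 (log2 ratio 1.81), the latter uncertain because its exons overlap another gene.

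Of the 24 adaptors and kinases, 1 was lower past the 2-fold limit in the eKO-labelled library against control. In the other 2 comparisons 0 passed. Among all genes, 8.08%, 7.88% and 4.12% were higher and 9.15%, 7.77% and 5.04% lower in these 3 comparisons. Most genes of any kind thus did not pass either. A gene that did not pass was not always within 2-fold, such as *Pik3cb* in eKO against control (log2 ratio 1.16, interval 0.92 to 1.39). The gene that passed was *Akt1*, a survival kinase downstream of many receptors, with 3529, 1685 and 2510 counts (log2 ratio -1.25). Their list medians were -0.13, 0.06 and 0.03.

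Several feedback inhibitors and targets of the ERK kinases passed the limit. Of the 24 negative regulators, 1 was higher and 3 lower in the eKO-labelled library against control, and 5 were higher and 0 lower with rLif against the eKO-labelled library. Over all genes 8.08% were higher and 9.15% lower in the first comparison, so 1 and 3 of 24 are near the background. In the second, 7.88% of all genes were higher and 7.77% lower. *Dusp6*, a phosphatase that switches ERK off and is itself induced by ERK, had 2228, 796 and 1792 counts (log2 ratio -1.67 and 1.31). *Dusp4*, a related phosphatase, had 33, 2 and 69 counts, with log2 ratios of -4.23 (interval -7.33 to -2.26) and 5.25 (interval 3.34 to 8.32). *Spry1*, an inhibitor of Ras signalling, had 1040, 440 and 758 counts (log2 ratio -1.43 for eKO against control and 0.93 for rLif against eKO).

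Of the 17 ERK-responsive targets, 2 were higher and 4 lower in the eKO-labelled library against control, with a median of -0.43. With rLif against the eKO-labelled library 6 were higher and 0 lower, with a median of 1.03, and with rLif against control 6 were higher and 3 lower, with a median of 0.60. Over all genes the shares in these 3 comparisons were 8.08%, 7.88% and 4.12% higher and 9.15%, 7.77% and 5.04% lower. *Etv4*, an ETS transcription factor, had 35, 0 and 17 counts. Against the floor, it was lower in the eKO-labelled library than in control by a factor of at least 13.3 and higher with rLif by a factor of at least 6.25. *Plaur*, the urokinase receptor, had 316, 57 and 96 counts (log2 ratio -2.66 for eKO against control and 0.89 for rLif against eKO). *Egr2*, an immediate early gene, differed in order, with 4, 35 and 70 counts. Its log2 ratio was 2.94 between the eKO-labelled and control-labelled libraries, past the limit.

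**Figure D5:**
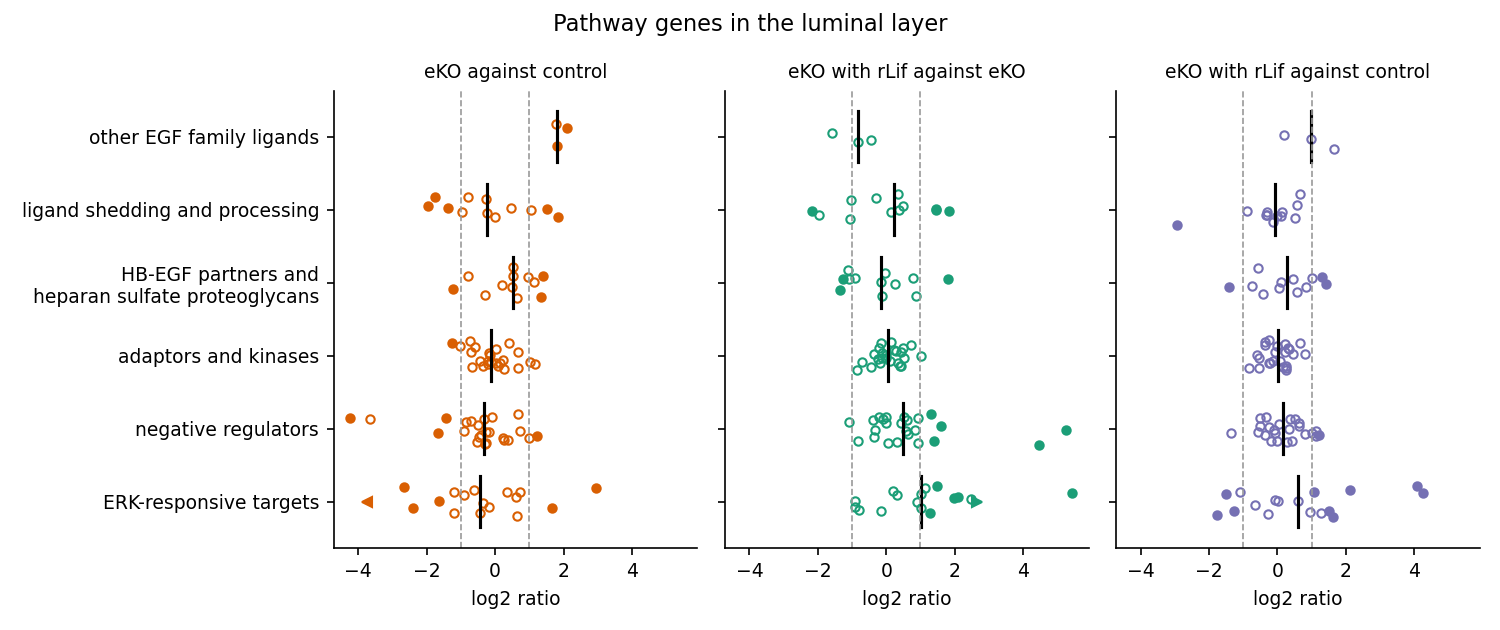
Log2 ratios in the luminal layer of the genes of 6 pathway lists that reached the count minimum, 1 point per gene, for 3 comparisons of single libraries. Filled symbols passed the 2-fold limit (dashed lines), triangles are bounds from a floor of 3 counts, and black bars are list medians. The medians of the ERK-responsive targets were -0.43, 1.03 and 0.60, and those of the adaptors and kinases -0.13, 0.06 and 0.03.

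In blastocysts 90 of the 94 pathway genes reached the count minimum. In the 3 comparisons 0 were higher, and 2, 3 and 6 were lower for eKO against control, rLif against eKO and rLif against control. Over all genes 1.86%, 2.83% and 3.99% were lower in these comparisons, so 2 and 3 of 90 are near the background. *Adam8*, a protease of the ADAM family, had 214, 59 and 28 counts in the same order of libraries. That was the same order as *Egfr*, with log2 ratios of -1.89 for eKO against control and -2.96 for rLif against control. For *Fosl1*, an AP-1 subunit, the counts were 12, 0 and 0, so eKO was lower by a factor of at least 4.10, and its exons overlap another gene.

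For each gene that passed the limit in the eKO-labelled library against control, the most similar other genes were found by Euclidean distance in log2 CPM (pseudocount 2) after centring each tissue. *Areg* was compared over the 3 luminal libraries among 12837 genes, and the nearest were *Sprr2g* (distance 0.0227), with 9957, 2549 and 63761 luminal counts, and *Sprr2f* (distance 0.143), with 16676, 4089 and 94769. These are small proline-rich genes of cornified epithelia, and reads could be split among the near-identical copies of that family. For *Ereg* the nearest over the same libraries were *Pam* (distance 0.0268), with 722, 537 and 1639 luminal counts, and *Prr18* (0.0374), with 34, 4 and 129. The pseudocount compresses the differences of a gene as low as *Ereg*, so *Pam* shared its order but not the size of its ratios. For *Tgfa* the nearest were *Car8* (0.0207) and *Nrbp2* (0.0261).

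The other members were compared over all 6 libraries among 10389 genes. The nearest to *Hbegf* was *Plxnb1*, a semaphorin receptor (distance 0.159), with 2000, 832 and 3007 luminal counts and 448, 646 and 235 blastocyst counts. It thus had the order of *Hbegf* in both tissues, including the low value in blastocysts with rLif. For *Hbegf* the second was *Slc22a21* (distance 0.431). The nearest to *Erbb3* were *Mtus1* (distance 0.287, exons overlapping another gene) and *Atg14* (0.295).

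The nearest to *Egfr* were the amino acid transporter gene *Slc38a2* (distance 0.351) and the collagen gene *Col3a1* (distance 0.494), a stromal marker. *Slc38a2* had 2986, 9007 and 6535 luminal counts and 1734, 1059 and 515 blastocyst counts. *Col3a1* had 5719, 14377 and 8335 luminal counts and 122, 60 and 28 blastocyst counts, so both had the *Egfr* order in each tissue. With 3 libraries per tissue, likeness here is a description of these 6 libraries only.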

How the data were processed

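Groups were taken from the sample labels. The authors pooled RNA or blastocysts into 1 SMART-seq v4 library per group, aligned reads to GRCm38/mm10 with HISAT2 and counted them with featureCounts (Subread 2.0.0). Annotation release, strand and multimapping settings are not given in the sources used here. Each of the 2 tables the authors deposited, 1 per tissue, holds raw read counts as whole numbers, although the study's methods speak of values scaled by exon length. Exons of 2814 of 23420 genes overlap another gene's, so such counts are uncertain. Gene types were matched to GENCODE M21 and promoters to RefSeq GRCm38.p6.

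The control, eKO and rLif-treated eKO libraries held 23850565, 28460465 and 27809527 counts for the luminal layer and 18996158, 19638852 and 19417359 for blastocysts. TMM scaling used edgeR 4.0.16 in R 4.3.3. Ratios and intervals (95% Clopper-Pearson, exact Poisson) were computed in Python 3.11.15 with scipy 1.17.1. The ratio intervals were tested on simulated Poisson counts, which hold no PCR copies and no spread between animals. The 6 pathway lists and 9 marker lists, the members and the rule for named genes were chosen with earlier results of these data known. All members were named. From each pathway list up to 3 genes per tissue were named, those with the largest log2 ratio among genes past the limit in eKO against control, and the 2 nearest genes by likeness for each member past it in the luminal layer. Likeness needed at least 100 counts summed in each tissue used. In the tables, 5 listed genes were found under an older symbol. Alternatives were other scalings (total counts, DESeq2 1.42.0 size factors, TPM), count minimums, fold limits, RPKM for TPM, leaving out overlapping members, and edgeR's exact test with an assumed dispersion of 0.1.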

Additional observations from a re-analysis of the deposited data

Results flagged for a closer look

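In 9 cases a gene of the family had log2 ratios of opposite sign in the luminal layer and in blastocysts, with both counting intervals clear of 0. All of these cases came from *Hbegf*, *Egfr*, *Erbb2* and *Erbb3*, in comparisons that share their libraries. The share of all genes that meet the same rule was not counted, so the 9 cases have no background to be set against. Each direction rests on 1 library per group, and the difference between the tissues was not tested.

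In eKO against control, *Egfr* had a log2 ratio of 1.55 in the luminal layer and -1.86 in blastocysts. *Hbegf* had -1.50 and 0.45, *Erbb3* -1.97 and 0.65, and *Erbb2* -0.33 and 0.11. With rLif against eKO, *Hbegf* had 2.11 in the luminal layer and -1.85 in blastocysts. With rLif against control, *Hbegf* had 0.61 and -1.40, *Egfr* 0.96 and -4.58, *Erbb2* -0.41 and 0.39, and *Erbb3* -0.25 and 0.99. Of these, *Hbegf* with rLif against eKO and *Egfr* in eKO against control passed the 2-fold limit in both tissues.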

How the results depend on the processing

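The number of genes of the family past the 2-fold limit was 6, 6 and 2 in the luminal layer and 1, 2 and 2 in blastocysts (eKO against control, rLif against eKO, rLif against control). It was the same with total counts, DESeq2 size factors or no count minimum, and stayed within 1.5 times with TPM (7, 6 and 3 in the luminal layer), a minimum of 50 counts (6, 5 and 2) or without *Egf* and *Erbb2*, whose exons overlap another gene (6, 5 and 2, a setting added after seeing the data). At a log2 limit of 2 the numbers were 2, 3 and 1 in the luminal layer and 0, 0 and 1 in blastocysts. At a log2 limit of 0 they were 9, 8 and 8 in the luminal layer and 4 in each blastocyst comparison. The share of all genes past these other limits was not counted. With edgeR's exact test at an assumed dispersion of 0.1 the number of genes was 2, 4 and 1 in the luminal layer and 0, 0 and 1 in blastocysts, fewer than under counting error alone. No log2 ratio of a gene past the limit changed sign under these settings. The median of all luminal genes shifted by -0.17, -0.11 and -0.29 with TPM and by -0.11 and -0.18 with total counts for rLif against eKO and against control. The share of higher calls among all luminal calls was 46.9% for eKO against control (35.5% with TPM) and 45.0% for rLif against control (29.9% with total counts, 21.7% with TPM). RPKM values were 0.438 to 0.653 times the TPM values, with the same order of genes within a library. No paired analysis was possible because each group was 1 library, and for the same reason no replicate could be left out. With counts of 0 to 11, *Ereg*, *Btc*, *Areg*, *Tgfa* and *Erbb4* in blastocysts are limited by depth.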
